A study of Mus musculus with 7 samples.

Results

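The regions described here are stretches of mouse chromatin that lay away from promoters and carried an ATAC-seq peak in every library of the series. ATAC-seq sequences DNA fragments cut out of accessible chromatin, and peaks mark where such fragments pile up above the background of a library. Overlapping peaks of all 7 deposited lists were merged into 145247 union regions. A region was kept when a peak of each of the 7 libraries overlapped it and when it lay more than 1000 bp from every annotated transcription start site (TSS). This left 31226 shared distal regions, which were 21.5% of all union regions (95% Wilson interval 21.3 to 21.7%) and 67.2% of the 46442 regions open in all 7 libraries. The regions were chosen by the peak calls of all 7 libraries, so their presence in every list is a description of the choice and not a result.

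The series asked what the ETS-family transcription factor Erg does in early B lymphopoiesis. B-lineage cells of 3 stages, pre-proB, proB and preB, were sorted from mice, and 1 library was made for each of 7 groups. Per the study's methods, all gates required B220 and excluded IgM, IgD, NK1.1 and CD11c, and pre-proB cells were CD43+CD24-, proB cells CD43+CD24+ and preB cells CD43-CD24+, with further markers not listed here. Whether animals were pooled for a library is not given in the sources used here.

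WT pre-proB, WT proB and WT preB cells had the genotype Ergfl/fl, in which the Erg alleles are floxed and intact because no Cre is present. Erg KO pre-proB cells had the genotype Rag1CreT/+;Ergdelta/delta, in which Rag1Cre, active in lymphoid cells, had deleted Erg. Rescue pre-proB, proB and preB cells had the genotype Rag1CreT/+;Ergdelta/delta;IgHVH10tar, which adds to the same deletion an immunoglobulin heavy chain allele with a prearranged variable region. Mice of the study were adult, on a C57BL/6J background and of both sexes. No WT library carried Rag1Cre, and no WT library carried IgHVH10tar, so the deletion and Cre cannot be told apart, and at the proB and preB stages neither can be told apart from the heavy chain allele. With 1 library per group there is no spread between replicates, so no test was run, and every interval below covers counting error only.

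Titles and source names disagreed on the stage of every Rescue library, and titles were used. The source names put Rescue pre-proB at proB, Rescue proB at preB and Rescue preB at pre-proB. Read by title, the Rescue and Erg KO pre-proB libraries differed by 2-fold or more in 39 of the 31226 shared distal regions, while any pre-proB library and any proB or preB library differed so in 7381 to 10944. At the promoter of Cd79a, which encodes a signal chain of the B cell receptor, the fold was 59.0 to 81.3 in the 4 libraries titled proB or preB, and in those titled pre-proB it was 11.4 in WT and 3.57 in Rescue cells with no peak in Erg KO cells. The promoter of Ptprc, which encodes the leukocyte antigen CD45 and its B220 form, had a fold of 41.4 to 56.1 in all 7. Stage comparisons are also given for the WT libraries alone and by source name, and the Rescue comparisons at the proB and preB stages rest on the titles.

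Distal accessible regions include enhancers, which bind transcription factors and act on promoters at a distance, and insulators bound by CTCF, a zinc finger protein that anchors chromatin loops. In the haematopoietic lineages, ETS factors such as PU.1 and Erg and the Runt factor RUNX1 bind many enhancers. EBF1, E proteins such as E2A, and PAX5 bind those that act in B cells.

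The sequences below show what kinds of letters the regions held and tie each kind to its behaviour across the libraries. Each line is a 100-base window on the forward strand of GRCm38 (mm10), read from the RefSeq copy of that assembly, with the match to a sequence pattern in capitals. The first pair held the CTCF pattern, with a range over the libraries of 0.20 and 0.41 on the log2 scale. They lay at chr14:55497425-55497524 near Carmil3 and at chrX:75674352-75674451 near Rab39b.
Carmil3 region, CTCF pattern: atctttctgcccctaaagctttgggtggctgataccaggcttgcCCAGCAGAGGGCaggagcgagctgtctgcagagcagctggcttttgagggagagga
Rab39b region, CTCF pattern: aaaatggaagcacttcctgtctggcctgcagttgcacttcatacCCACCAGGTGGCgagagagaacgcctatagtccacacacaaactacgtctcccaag
The next pair were more open in proB and preB cells than in pre-proB cells. They lay at chr17:43557549-43557648 near Pla2g7 (EBF1 pattern) and at chr3:126810462-126810561 in an intron of Camk2d (the octamer ATGCAAAT, here on the reverse strand).
Pla2g7 region, EBF1 pattern: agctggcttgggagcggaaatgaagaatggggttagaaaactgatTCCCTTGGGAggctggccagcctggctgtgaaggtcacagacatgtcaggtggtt
Camk2d intron region, octamer: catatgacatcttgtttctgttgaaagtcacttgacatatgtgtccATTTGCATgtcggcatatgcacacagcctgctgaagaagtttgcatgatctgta
The pair after that were more open in pre-proB cells, at chr12:8998401-8998500 in an intron of Wdr35 (the RUNX pattern TGTGGTT) and at chr15:36706078-36706177 near Ywhaz (the PU.1 pattern GAGGAAGT).
Wdr35 region, RUNX pattern: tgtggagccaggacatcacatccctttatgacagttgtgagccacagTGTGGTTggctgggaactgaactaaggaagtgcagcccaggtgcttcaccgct
Ywhaz region, PU.1 pattern: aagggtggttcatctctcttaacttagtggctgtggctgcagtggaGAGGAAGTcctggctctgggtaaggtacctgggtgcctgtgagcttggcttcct
The last 3 were an EBF1 match in a region more open in WT than in Erg-deficient pre-proB cells, at chr9:90198827-90198926 in an intron of Adamts7, an ETS match (CNGGAAGT) in a region of the same kind, at chr6:145106299-145106398 near Lrmp, and a PU.1 match on the reverse strand in a region strongly open in all 7 libraries, at chr13:83609316-83609415 in an intron of Mef2c.
Adamts7 region, EBF1 pattern: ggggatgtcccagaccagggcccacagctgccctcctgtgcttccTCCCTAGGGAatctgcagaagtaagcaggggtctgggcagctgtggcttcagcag
Lrmp region, ETS pattern: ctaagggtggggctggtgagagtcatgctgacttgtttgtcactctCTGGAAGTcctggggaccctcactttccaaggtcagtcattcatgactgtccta
Mef2c region, PU.1 pattern: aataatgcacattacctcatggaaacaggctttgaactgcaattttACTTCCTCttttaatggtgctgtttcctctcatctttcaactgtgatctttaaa
A match is a description of the letters and not a bound site, and the regions shown were picked after their values were seen.

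Shared distal regions were the largest single class of distal regions. Of 121694 distal regions, 23806 had a peak in 1 library, 13305 in 2, 21572 in 3, 16669 in 4, 8227 in 5, 6889 in 6 and 31226 in 7. Of the 6889 that missed a single library, 2713 (39.4%) missed WT preB, the library with the fewest peaks (76465). Rescue pre-proB, the library with the most peaks (105649), was the one missed in 319. The lowest summit pileup of a called peak was 10 to 12 fragments, so a region without a peak may still have held about that many.

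**Figure D1:**
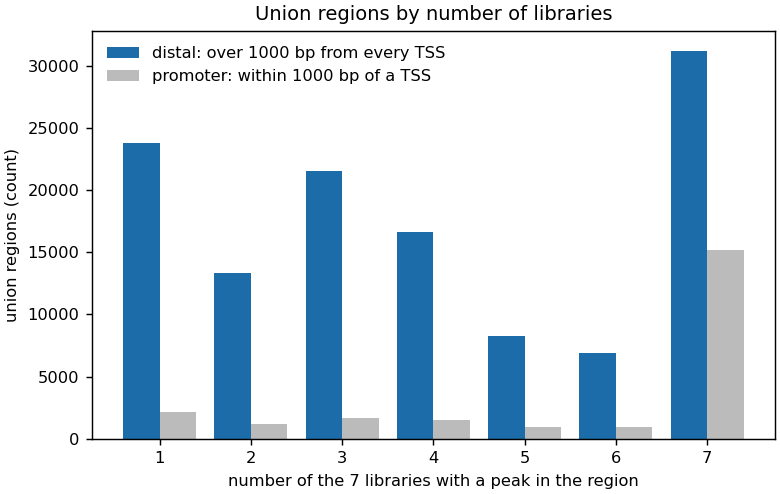
Number of union regions by the number of libraries with a peak, for distal and promoter regions. Distal regions were most numerous at 7 libraries, where the bar stands at 31226, and fewest at 6, at 6889.

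Signal in these regions was intermediate between promoters and other distal regions. The fold is the ratio of the pileup at the peak summit to the background pileup of the library, with 1 added to each. A region took the highest of its peaks. The median fold over the 31226 regions was 12.2 in WT, 12.5 in Erg KO and 13.2 in Rescue pre-proB cells, 10.9 and 11.6 in WT and Rescue proB cells, and 10.5 and 11.97 in WT and Rescue preB cells. Promoter regions open in all libraries had medians of 33.9 to 40.2 and the other distal regions, where a peak was called, of 4.80 to 5.82. The order against the other distal regions follows in part from the rule, since those regions missed the peak call in at least 1 library. These regions held 31.2 to 43.5% of the peaks of a library. The background pileup, which stands for relative depth, was 3.49 to 4.60.

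**Figure D2:**
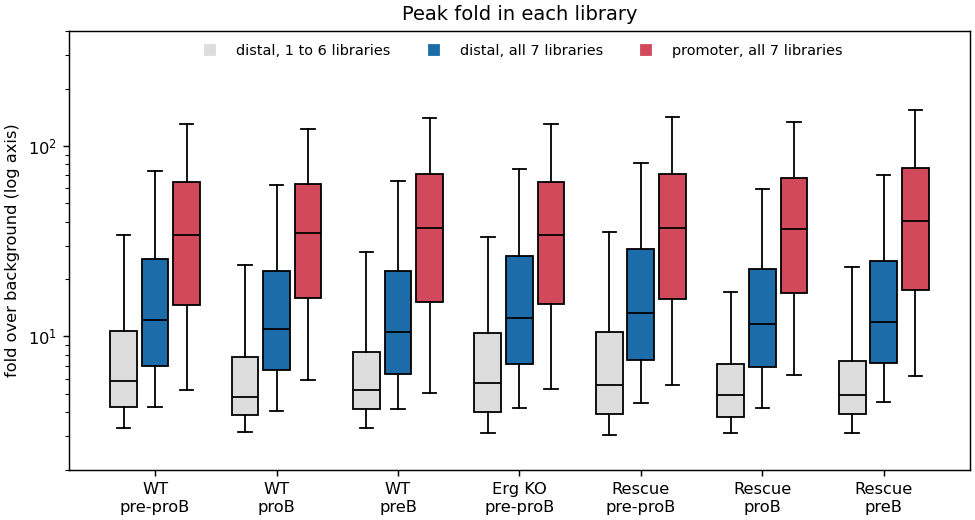
Fold over background in each of the 7 libraries for shared distal regions, promoter regions open in all libraries and other distal regions, on a log axis. Boxes span the quartiles with the median as a line and whiskers reach the 5th and 95th percentiles, and the shared distal medians of 10.5 to 13.2 lie between the other 2 classes in every library.

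The rule required the peaks of all 7 libraries to overlap or to be joined by overlaps, for promoters open in all libraries as well, so the closeness of their peaks is a description. In 31024 regions the peaks of all 7 libraries had at least 1 base in common, over a median of 391 bp, and in 202 regions a chain of overlapping peaks joined them without a common base. In 26614 regions (85.2%) every library had exactly 1 peak. The 7 summits lay within a median of 92 bp of each other, and in 77.1% of regions within 150 bp, against 84 bp and 73.3% for promoter regions open in all libraries.

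Shared distal regions were mostly intronic or intergenic, with 53.3% in introns, 41.4% between genes and 5.36% in exons by the position of their centre. Their median width was 814 bp, with quartiles of 562 and 1197 bp, against 411 bp for the other distal regions and 1542 bp for promoters. A region with a peak in more libraries is a union of more peaks, so width grows in part by construction. The median distance to a TSS was 11979.5 bp, and the GC content of the central 300 bp was 48.7% against 63.3% at promoters. Of those inside a coding gene, 77.4% had that gene as the one with the nearest TSS. Regions close to the distance limit looked alike on either side, since the 475 regions open in all libraries at 801 to 1000 bp from a TSS had a median fold of 10.5 and the 445 at 1001 to 1200 bp had 11.3.

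They were spread over all chromosomes, at 9.67 to 15.5 per Mb of autosome, 3.88 per Mb on X and 0.109 per Mb on Y. They made up 23.9 to 28.4% of the distal regions of each autosome. The median gap between neighbours was 18528 bp, and 36.4% of gaps were under 10000 bp. The densest 100-kb bins held 17 regions each, near Sfi1 on chromosome 11 and near Mtss1, which encodes an actin-binding protein, on chromosome 15. A bin at Erg held 14 and one at Ptprc held 13.

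The CTCF pattern was more frequent in shared distal regions than in either other class. It was found within the central 300 bp of 3046 regions, 9.75% (9.43 to 10.1%), against 2.43% of the other distal regions, 2.57% of promoters open in all libraries and 3.97% of all union regions. Its letters in reversed order, which keep the base composition, were found in 0.00640% of the shared distal regions. The reversed letters hold a C followed by G, which the pattern lacks. That step occurred a median of 4 times in the central 300 bp, so the reversed share is a control for single bases only. By the number of libraries with a peak the share was 1.61% at 1, 2.35% at 2, 1.51% at 3, 2.26% at 4, 3.94% at 5 and 6.84% at 6. The share thus stayed under 4% up to 5 libraries and was highest at 7.

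Patterns of haematopoietic factors were also common but differed less between the classes. ETS (CNGGAAGT) was found in 11.1% of shared distal regions (10.7 to 11.4%), 9.01% of other distal regions, 13.2% of promoters and 9.84% of all union regions. PU.1 (GAGGAAGT), the preferred site of that ETS factor, was found in 10.9%, 8.57%, 4.80% and 8.56% of these classes in turn. It differs from the ETS pattern in its first letter, so no match counted for both. RUNX (TGTGGTT) was found in 14.1%, 14.9%, 5.34% and 13.5%, so it was no more frequent in shared than in other distal regions. With reversed letters the shared distal shares were 4.63% for ETS, 1.99% for PU.1 and 4.36% for RUNX. At least 1 of CTCF, ETS, PU.1 and RUNX was found in 40.3% of shared distal regions and 31.7% of the other distal regions.

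The E-box CAGCTG, a site of E proteins, was found in 27.9% (0.583% reversed) against 25.3% of other distal regions, and the E-box CACCTG in 28.2% (10.7% reversed) against 26.0%. The EBF1 pattern was found in 1.22% against 2.17% of other distal regions, and its reversed letters in 0.926%. The octamer ATGCAAAT, read by POU factors such as OCT2, was found in 2.52% against 2.94%. Promoter patterns were rarer than at promoters, with GGGCGG (SP/KLF) in 10.9% against 60.7% and the NRF1 pattern in 0.442% against 8.11%. AP-1 (TGANTCA) was found in 9.40% (7.96% reversed), the IRF pattern in 6.90% (4.91% reversed) and CCAAT (NFY) in 29.0% (32.2% reversed). AP-1 and IRF thus lay above their reversed shares and NFY below its own. Patterns were searched on both strands, and the reversed GGGCGG can overlap the pattern itself. The reversed CAGCTG holds a C followed by G, which CAGCTG lacks, so its reversed share is a control for single bases only.

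**Figure D3:**
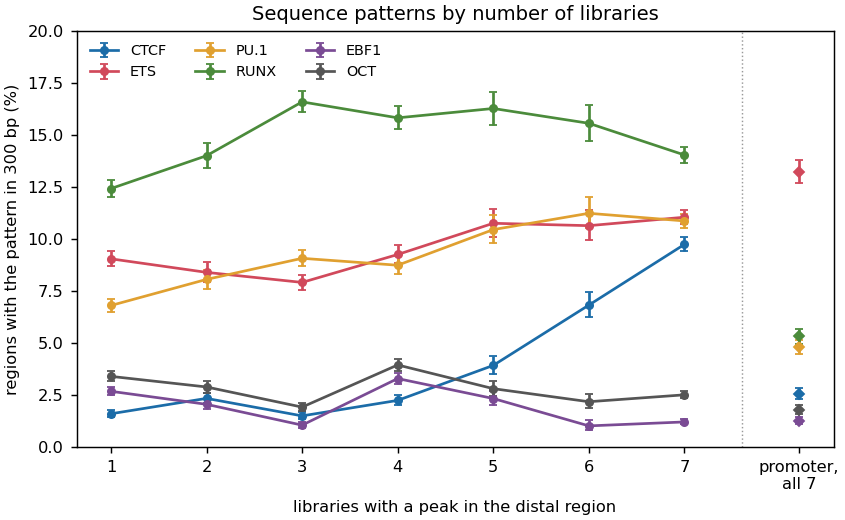
Share of distal regions with a CTCF, ETS, PU.1, RUNX, EBF1 or octamer (OCT) pattern in the central 300 bp by the number of libraries with a peak, with 95% Wilson intervals. Diamonds give promoter regions open in all libraries, and the CTCF share reaches 9.75% at 7 libraries from 1.61% at 1.

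CTCF matches lay on either side of the summit rather than at it. Of 3076 CTCF matches, 76.8% lay within 50 bp of the median summit, with a median distance of 35 bp. The bins centred 35 bp before and after the summit held 538 and 582 matches, and those centred 5 bp before and after held 28 and 21. The shares within 50 bp were 57.8% for PU.1, 47.9% for ETS and 46.9% for RUNX. CTCF matches seldom shared a region with the other 3 patterns, which were found in 14.7% of shared distal regions with a CTCF match and 33.8% of those without.

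**Figure D4:**
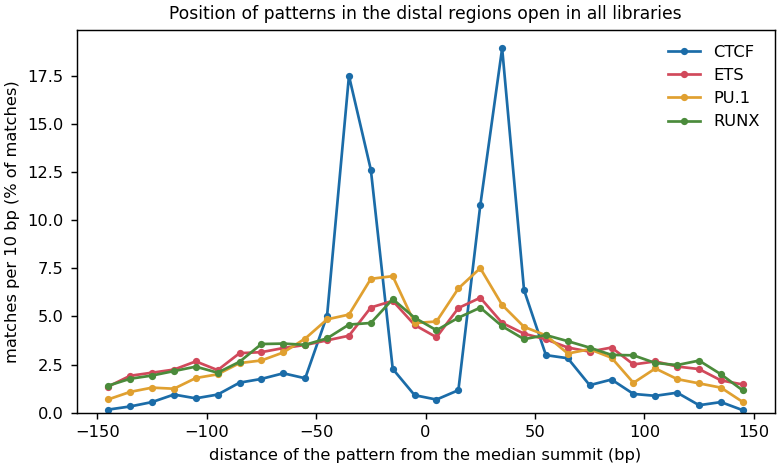
Position of pattern matches in shared distal regions relative to the median summit, in bp, for CTCF, ETS, PU.1 and RUNX. CTCF matches form a peak on each side of the summit, with 76.8% within 50 bp of it and few at the summit itself.

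Shared distal regions with a CTCF match were weak but even. Their median fold was 8.46, and the range of the median-centred log2 fold over the 7 libraries had a median of 0.85, against 1.22 in regions without the match. The range stayed under 2-fold in 65.4% of them, against 40.3% of all shared distal regions and 66.4% of promoters open in all libraries. Split by median fold into 4 classes of about equal size, CTCF shares were 15.6, 12.9, 8.03 and 2.60% from the weakest to the strongest class. Within each class the median range was lower with the match than without, at 0.89 against 1.03, 0.84 against 1.25, 0.78 against 1.45 and 0.79 against 1.26. The smaller range was therefore also seen among regions of like strength. A weak region has less room to vary here, because it had to pass the peak call in every library.

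Named regions show both ends of this scale. The region near Rab39b (chrX:75673290-75674807), whose CTCF letters are printed above, had the highest signal of those with the pattern, with folds of 142.9 in WT, 143.7 in Erg KO and 161.6 in Rescue pre-proB cells, 102.6 and 126.7 in WT and Rescue proB cells, and 118.8 and 137.4 in WT and Rescue preB cells. The Carmil3 region had folds of 16 to 18.1 and a range of 0.20 on the log2 scale. The smallest range of all, 0.09, belonged to a region near Odf4 (chr11:68939360-68940148) with folds of 35.1 to 42.5. A region near Rgs1, which encodes a regulator of G protein signalling in lymphocytes (chr1:144306319-144308978), followed at 0.11, with folds of 51.1 to 61.7.

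The strongest shared distal regions were partly repeats of the genome. The strongest, in an intron of Chl1 (chr6:103648933-103649442), had folds of 1050 to 1389, and its sequence had 3 other copies in the assembly at 90% identity over 200 bp or more. Among regions with at most 50% of the central 300 bp masked, the next, near Gm10800 (chr2:98664752-98665356), had folds of 526.9 to 755.7 and 4 other copies. A region near Rpusd4 whose central 300 bp were all repeat-masked (chr9:35305066-35305713) had folds of 835.7 to 968.7 and 162 other copies. Reads from copies cannot be told apart from reads of the region named, and these 3 values are uncertain for that reason. In all, 1744 shared distal regions (5.59%) were more than 50% repeat-masked over the central 300 bp. Among the strongest with no other copy were a region near BC035947 in an intron of Mogat1 (chr1:78536544-78539338), with folds of 227.1 to 279.6, and one in an intron of Uggt2 (chr14:119005658-119008532) with a PU.1 match and folds of 197.7 to 272.9. The widest, near Scaf8 (chr17:3006018-3023951), spanned 17934 bp and was 61.3% masked at its centre, while one near Irf8, which encodes an interferon regulatory factor of B and myeloid cells (chr8:120749909-120760813), spanned 10905 bp with folds of 20.9 to 29.1.

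Some of these always-open regions were graded by stage, at larger shares than promoters open in all libraries. The range over the 7 libraries had a median of 1.16 on the log2 scale, against 0.74 at promoters open in all libraries. For comparisons between libraries each log2 fold was centred on the median of its library over the 46442 regions open in all libraries, and a difference of 2-fold or more was counted. In 1875 shared distal regions (6.0%) each of the 4 proB and preB libraries exceeded each of the 3 pre-proB libraries by 2-fold or more. This held for 5.33% of all regions open in all libraries and 3.94% of promoters open in all libraries. In 2306 (7.38%) each pre-proB library exceeded each proB and preB library so, against 5.57% and 1.85%. Shared distal regions are 67.2% of all regions open in all libraries and so weigh on the shares of that set. Centred on promoters instead, which sat 1.03 to 1.37 above the common median on the log2 scale, the counts were 1478 and 3016, and by rank within a library, with 25 percentile points or more, they were 1163 and 505. The higher-in-later share of the calls was thus 44.8, 32.9 and 69.7% by the 3 scalings, so which direction was the more frequent rests on the scaling.

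Pairs of single libraries gave larger counts. WT proB exceeded WT pre-proB in 4649 shared distal regions (14.9%, against 13.2% of all regions open in all libraries). It lay below WT pre-proB in 5357 (17.2% against 13.1%). WT preB exceeded WT proB in 2099 (6.72% against 5.09%) and lay below it in 2169 (6.95% against 5.89%). Across any pre-proB and any proB or preB library, 23.6 to 35.05% of the shared distal regions were 2-fold or more apart. Between pre-proB libraries of different genotype 0.125 to 0.845% were. For promoters open in all libraries these shares were 11.6 to 20.8% and 0.0591 to 0.263%. By source name in place of title, no shared distal region separated the stages in either direction.

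For the regions higher at the later stages, the gap was taken from the highest pre-proB value up to the lowest later value. The widest gap was near Cst11 (chr2:148763478-148764766), with folds of 8.72 in WT, 4.95 in Erg KO and 5.004 in Rescue pre-proB cells, against 150.6 and 164.4 in WT and Rescue proB cells and 196.8 and 227.8 in WT and Rescue preB cells. The gap was 4.20 on the centred log2 scale, with a 95% counting interval of 3.76 to 4.64. The Pla2g7 region (chr17:43556766-43558455), which holds the EBF1 letters printed above and lies near the gene of a lipoprotein-associated phospholipase, had folds of 3.11 to 4.11 in the pre-proB libraries and 54.6 to 71.5 in the others. The region in an intron of Camk2d, a calmodulin-dependent kinase gene (chr3:126809660-126810928), with the octamer, had 3.67 to 4.85 and 67.9 to 75.1. The other two lay in introns of Nr1h5 (chr3:102945986-102947830) and of the growth factor receptor gene Fgfr2 (chr7:132479994-132481448), with later folds of 78.6 to 139.7 and 115.0 to 154.3.

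In the other direction the widest gap was near Ywhaz, which encodes a 14-3-3 adaptor protein (chr15:36705329-36706441). Its folds were 69.8 in WT, 69.8 in Erg KO and 73.3 in Rescue pre-proB cells, against 7.01 and 7.57 in WT and Rescue proB cells and 4.16 and 5.36 in WT and Rescue preB cells, a gap of 3.10 (2.59 to 3.61). The Wdr35 intron region (chr12:8998164-8998961), with RUNX and PU.1 matches, had 89.6 to 98.3 in pre-proB and 4.25 to 12.2 later. Regions in introns of P2ry6, a nucleotide receptor gene (chr7:100943214-100944948), of the hepatic lipase gene Lipc (chr9:70878524-70879359) and of Taf4, a TFIID subunit gene (chr2:179955613-179956468), had 32.8 to 55.0 in pre-proB and 3.88 to 7.01 later. In all of them the 2 sets of libraries were far apart, although a peak was called at every stage.

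The 2 graded sets held different letters. Of the 1875 regions higher in proB and preB, 5.76% held the EBF1 pattern and 7.09% the octamer, against 1.22 and 2.52% of all shared distal regions and 0.390 and 1.17% of the 2306 regions higher in pre-proB. Of those 2306, 20.6% held RUNX and 16.7% PU.1, against 15.6 and 11.1% of the 1875. The E-box CAGCTG was found in 36.8% of the first set and 39.1% of the second, against 27.9% of all. CTCF was found in 1.60% of each, against 9.75% of all.

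Median folds by pattern followed the same split. Over the 381 regions with an EBF1 match they were 10.5 in WT, 9.16 in Erg KO and 9.83 in Rescue pre-proB cells, against 21.8 and 17.8 in WT and Rescue proB cells and 19.7 and 20.2 in WT and Rescue preB cells. Over the 3398 with a PU.1 match they were 17.1 to 19.1 in the pre-proB libraries and 12.5 to 15.1 in the others. These folds are not centred, and over all shared distal regions the medians were 12.2 to 13.2 and 10.5 to 11.97. On the centred log2 scale the median of WT proB less WT pre-proB was -0.19 with a PU.1 match and 0.98 with an EBF1 match. Over the 3046 with CTCF they were 7.80 to 9.65 in all 7, with no split by stage. Of the regions with an EBF1 match, 28.3% were among those higher in proB and preB.

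Promoters of marker genes of other cell types differed between the stages in part, and what part they had in these differences was not tested. Summed over the promoters of 10 myeloid genes, the fold was 104 to 122 in the 3 pre-proB libraries and 39.0 to 78.4 in the others, with Elane, S100a8 and Ly6g without a promoter peak in any. The 2 ranges did not overlap for this list, and they did for the next 3. The sums mix genes that went in different directions, and the single genes given here were picked after their values were seen. In the myeloid list Cebpa had 59.3 to 71.1 in pre-proB and 14.0 to 35.4 later. Csf1r had 7.37 to 8.94 and 12.9 to 22.5. For 10 NK and innate lymphoid genes the sum was 171 to 206 against 147 to 188, with Ncr1 without a peak. For 10 T cell genes it was 93.4 to 132 against 118 to 134, with Cd3e, Cd3d and Zap70 without one. Within these lists Klrb1c had 35.2 to 49.7 in pre-proB and 5.54 at most later, and Cd8a 19.2 to 30.2 and 6.90 at most. Gata3 had 51.6 to 63.9 and 80.1 to 110, and Id2 95.4 to 112 and 104 to 137. For 10 erythroid genes it was 127 to 147 against 123 to 153, with Gata1, Alas2, Slc4a1, Hba-a1 and Ermap without a peak. For 10 non-haematopoietic genes it was 8.61 to 12.9 against 31.2 to 49.1, with 7 of them, Alb among them, without one. In this list Pax6 had 7.95 to 8.76 in pre-proB and 27.4 to 38.0 later. For 14 genes of the pre-B receptor and recombination it was 292 to 325 against 551 to 656. A bulk library cannot tell fewer cells with an open region from less accessibility in each cell.

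Few shared distal regions differed by genotype at the pre-proB stage, which follows in part from the rule. Every region kept had a peak in Erg KO and in Rescue pre-proB, so a region that lost its peak there could not be counted. A fall could be seen only down to the lowest called summit, of 10 to 12 fragments. The Erg KO and Rescue comparisons share the WT pre-proB library. Erg KO pre-proB lay 2-fold or more above WT pre-proB in 25 shared distal regions (0.0801%, against 0.0624% of all regions open in all libraries). It lay below WT pre-proB in 182 (0.583% against 0.439%). Rescue pre-proB lay above WT pre-proB in 26 (0.0833% against 0.0667%) and below it in 238 (0.762% against 0.588%). In 118 regions (0.378%) WT pre-proB exceeded both Erg-deficient pre-proB libraries by 2-fold or more. This held for 0.293% of all regions open in all libraries and 0.118% of promoters open in all libraries. In 7 shared distal regions (0.0224%) both exceeded WT, against 0.0151% of all regions open in all libraries and 0 promoters. Without Erg KO pre-proB the 118 became 271, and without Rescue pre-proB 204. By rank within a library the counts were 107 higher in WT and 137 higher in Erg-deficient cells, so which direction was the more frequent rests on the scaling. By source name they were 19 and 11.

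The 118 regions were weakly open in Erg-deficient pre-proB cells, which follows from how they were chosen, and strongly open later. In WT pre-proB cells their median fold was close to the 12.2 of all shared distal regions. Their median folds were 11.05 in WT, 4.40 in Erg KO and 4.83 in Rescue pre-proB cells, against 64.2 and 34.97 in WT and Rescue proB cells and 38.8 and 37.3 in WT and Rescue preB cells. Of the 118, 56 held CACCTG (47.5%, against 28.2% of all shared distal regions), 20 held ETS (16.9%, with an interval of 11.2 to 24.7%, against 11.1%), 10 held EBF1 (8.47% against 1.22%), 8 held PU.1 (6.78% against 10.9%) and 1 held CTCF. The ETS interval thus covers the share among all shared distal regions. Cell composition of the gated population was not measured. The Cd79a promoter values given above differed between the pre-proB populations in the same direction, but directions were mixed among genes of the pre-B receptor and recombination. The Cd22 promoter had 30.4 in WT, 35.4 in Erg KO and 40.4 in Rescue pre-proB cells, and that of Il7r had 39.9, 51.9 and 50.2. The paper also reports that Erg binds at Cd79a and that its expression in pre-proB cells depends on Erg. The part of such differences was not tested.

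The widest gap among the 118 was in an intron of Vps13d (chr4:144998123-145000412), with folds of 18.03 in WT, 3.85 in Erg KO and 4.11 in Rescue pre-proB cells, against 79.6 and 12.9 in WT and Rescue proB cells and 12.9 and 7.01 in WT and Rescue preB cells. The gap was 2.28 on the log2 scale (1.58 to 2.98). The Adamts7 intron region (chr9:90194840-90199680), in the gene of a secreted metalloprotease, had 14.3 in WT, 3.11 in Erg KO and 3.04 in Rescue pre-proB cells, and 113.4 to 151.4 in the other 4. The region in an intron of Uhrf1, a factor that maintains DNA methylation (chr17:56308989-56310331), had 16.3 in WT pre-proB, 4.21 and 4.11 in the 2 deficient pre-proB libraries, and 67.9 to 105.0 later. Regions near Gm5426 (chr10:96200655-96202490) and near the ephrin gene Efna5 (chr17:63006668-63009131) had 14.9 and 15.7 in WT pre-proB and 3.11 to 4.29 in the deficient pre-proB libraries. In all of these but the Vps13d region, both Rescue proB and Rescue preB cells lay above WT pre-proB cells.

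**Figure D5:**
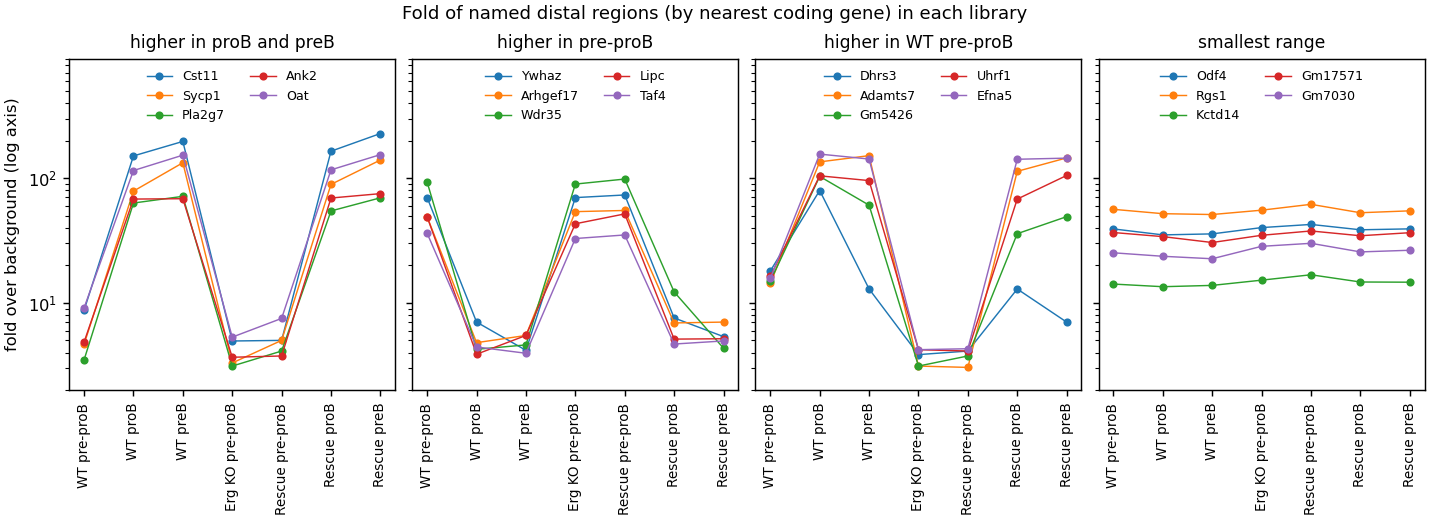
Fold of 20 named shared distal regions in the 7 libraries on a log axis, in 4 panels of 5 regions: higher in proB and preB, higher in pre-proB, higher in WT than in both Erg-deficient pre-proB libraries, and smallest range. Names are of the nearest coding gene, so the regions in introns of Nr1h5, Camk2d, Fgfr2, P2ry6 and Vps13d appear as Sycp1, Ank2, Oat, Arhgef17 and Dhrs3, each point is 1 library, lines only join the points of a region, and the Ywhaz region lies at 69.8 to 73.3 in pre-proB and at 4.16 to 7.57 later.

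The 7 regions in the other direction included one in an intron of Snd1 that was 72.7% repeat-masked at its centre (chr6:28929163-28929859), with 6.78 in WT, 23.4 in Erg KO and 34.7 in Rescue pre-proB cells. A pair lay on chromosome Y near Gm47283 and Gm21860, with more than 30% of the central 300 bp masked. Mice of the study were of both sexes, and what part sex had in the values of this pair was not tested. One touched an exon of Lrp4 (chr2:91475847-91477530), with 8.92 against 24.0 and 22.3, and one an exon of B4galt5 (chr2:167298724-167300642), with 7.17 against 16.3 and 19.1. Without Erg KO pre-proB the 7 became 30, without Rescue pre-proB 25 and without WT proB 12.

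No shared distal region set all 3 WT libraries above all 4 Erg-deficient libraries by 2-fold, and 1, the Snd1 intron region, did the reverse (0 and 0.00215% of all regions open in all libraries). Without WT pre-proB the 2 counts were 45 and 125. The widest WT gap, 0.92 on the log2 scale, was near Anapc15-ps (chr10:95680125-95681498), with 18.2, 15.5 and 15.1 in the WT libraries and 8.24 to 9.11 in the deficient ones. At the proB stage Rescue exceeded WT in 1945 shared distal regions (6.23%, against 4.69% of all regions open in all libraries). It lay below WT in 1586 (5.08% against 3.89%). At the preB stage Rescue exceeded WT in 533 (1.71% against 1.62%) and lay below it in 374 (1.20% against 0.868%). By source name the proB pair was WT proB and the library titled Rescue pre-proB, 2-fold or more apart in 10673 regions (34.2%). The preB pair was WT preB and the library titled Rescue proB, apart in 3070 (9.83%). For promoters open in all libraries the shares were 15.4 and 3.94%.

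Nearly every regulator of the B lineage had a shared distal region nearest to it. Each region was assigned to the coding gene with the nearest TSS, which gave 10430 of 21938 coding genes (47.5%) at least 1 region. Of 20 B-lineage regulators 19 had one, with a median of 13 and 292 regions in all, and Pou2af1 had none. Of these 292, 30 were among those higher in proB and preB, 19 among those higher in pre-proB and 1, near Runx1, among those higher in WT pre-proB, where the shares of all regions open in all libraries were 5.33, 5.57 and 0.293%. At none of the 20 genes did shared distal regions outnumber the other distal regions, with 39 and 100 at Foxp1 and 33 and 96 at Mef2c. Shared distal regions were 25.7% of all distal regions, so high counts at these genes are not a trait of the shared regions alone. The genes with the most regions of all were Adgrl2 (51), the forkhead gene Foxp1 (39), the phosphodiesterase gene Pde4d (34), the myocyte enhancer factor gene Mef2c (33), Prex1 and Tbl1xr1 (32 each), the forkhead gene Foxo1 and Rapgef5 (30 each), and Smad7 and Tbc1d1 (29 each). Long genes and gene deserts collect more regions by this assignment. Counted instead over the gene body and 10 kb either side, the most were at Gm20388 (136), Fgfr2 (66) and Foxp1 (38), and Adgrl2 had 10.

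Other lists, which hold fewer genes, had fewer regions in all. Of 14 genes of the pre-B receptor and recombination 11 had a region, 51 in all, led by the kinase genes Syk and Lyn (12 each), with none at Cd79a, Vpreb1 and Rag1. Of 12 pan-haematopoietic genes 11 had one, 62 in all, led by Ptprc (25), with none at Lsp1, and of 10 housekeeping genes 8 had one, 17 in all. Among markers of other cell types, 6 of 10 T cell genes had 17 regions, 6 of 10 NK and innate lymphoid genes 40, of which 24 were at Id2, 6 of 10 myeloid genes 12, 4 of 10 erythroid genes 11 and 5 of 10 non-haematopoietic genes 6. Among the markers with none were Cd3e, Cd8a, Ncr1, Mpo and S100a8. A share near 47.5% is that of any coding gene.

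Strong regions at these genes were even or graded, and those named here and at the other list genes were chosen after their values were seen. At Ptprc the strongest (chr1:138135307-138137395) had folds of 124.1 in WT, 121.7 in Erg KO and 123.7 in Rescue pre-proB cells, 122.6 and 131.6 in WT and Rescue proB cells, and 113.3 and 127.7 in WT and Rescue preB cells, and at Mef2c (chr13:83607348-83610666), with the PU.1 letters printed above, 167.5 to 204.7. The Lyn region (chr4:3646628-3650264) had 108.9 to 150.2. None of these separated the groups by 2-fold.

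Others were higher at the later stages. At Cd79b (chr11:106324660-106326187) folds were 4.46 to 5.72 in the pre-proB libraries and 24.5 to 32.0 later, and at the kinase gene Btk (chrX:134566292-134567502) 7.68 to 8.14 and 32.3 to 39.2. At Il7r, which encodes the receptor of the cytokine IL-7 (chr15:9491178-9493188), they were 13.2 to 14.4 and 37.2 to 43.6. At Pax5 (chr4:44704048-44706613) they were 20.9 to 22.0 and 55.5 to 70.6. These regions do not give the direction of a whole locus. Of the 6 regions assigned to Il7r, 1 was called higher later and 2 higher in pre-proB, and of the 6 at Pax5 it was 1 each way. At Cd79b and at Btk, 1 was called higher later and 0 higher in pre-proB. The Il7r promoter had 39.9 to 51.9 in the pre-proB libraries and 27.3 to 35.1 later.

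A few were lower at the later stages. The Dntt region, in an intron of the gene of terminal deoxynucleotidyl transferase (chr19:41038831-41039881), had 64.8 to 69.5 in the pre-proB libraries and 28.1 to 42.1 later. At Tcf7, a T cell factor gene (chr11:52317952-52319482), folds were 77.7 to 88.6 and 10.9 to 31.8. The strongest region assigned to Gata3, 284034 bp from its TSS (chr2:9593594-9594566), had 102.0 to 126.8 in the pre-proB libraries, 55.6 and 58.1 in WT and Rescue proB, and 5.48 and 14.2 in WT and Rescue preB, a lower value at each step. At Erg itself 18 regions were assigned, of which the strongest (chr16:95432027-95433496) had 68.0 in WT, 59.9 in Erg KO and 56.3 in Rescue pre-proB cells and 89.3 to 124.2 later. These regions were not a check of the deletion.

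Some shared distal regions coincided with regulatory elements in RefSeq. They overlapped 139 of 1015 annotated enhancers (13.7%), of which 114 were among 620 VISTA enhancers, against 167 for other distal regions. They also overlapped 4 of 7 enhancer-blocking elements, through 2 regions, and 5 of 9 CTCF binding sites, through 3 regions, against 2 and 3 of these elements for other distal regions. The elements named next were chosen after their values were seen. The region at the Runx1 +23 enhancer (chr16:92800594-92802343) had folds of 21.5, 21.8 and 24.8 in WT, Erg KO and Rescue pre-proB and 34.2 to 52.2 later. The region at the intronic B cell enhancer of Pax5 (chr4:44670737-44673606) had 29.6 to 43.9 in all 7. At Gfi1, a repressor gene (chr5:107717243-107718749), folds were 55.5 to 102, and at the H19 imprinting control region, an insulator (chr7:142580062-142580971), 4.03 to 8.33.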

How the data were processed

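Each of the 7 libraries came as 1 peak list. According to the study's methods, the authors aligned paired-end reads to mm10 with Bowtie2 and called peaks with MACS2, and the options and versions of both tools are not given in the sources used. CASAVA 1.8.2 and Picard are also named in the submitters' processing notes. Fragmentation is uncertain, since the labels' protocol has Tn5 where the methods have sonication. The authors deposited for each peak a score, a fold, and −log10 p and −log10 q values, of which the fold was the value compared. The fold is the ratio of summit pileup to background, with 1 added to each. All folds were whole multiples of 1 step per library, to within 0.02 of a step, which gave the background pileup and the fragments at a summit. Read totals are unknown.

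Peaks were merged by overlap of at least 1 bp. TSS and genes were those of GENCODE M21 basic. Sequence came from RefSeq GRCm38.p6, patterns were searched within 300 bp around the median of the 7 summits, and copies with blastn 2.17.0. Counts were computed with Python 3.11.15, bedtools 2.31.1 and pysam 0.24.0 and tested on simulated data. Named regions were the 8 with the highest median percentile of fold and at most 50% masked bases, the 3 highest of the rest, the 5 with the widest gap in each contrast and direction, the 5 most even, the 5 widest and the strongest with each pattern, none on chromosome 18. Regions, lists and patterns were chosen with earlier results of these data known. Alternatives were 7 settings of the region set, 3 of the window, 5 of the comparison, 1 of the assignment to genes, each library left out, and the source names.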

Additional observations from a re-analysis of the deposited data

Results flagged for a closer look

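In 12 shared distal regions the step from pre-proB to proB went in opposite directions in WT and Rescue cells by 2-fold or more, which is why they are listed here. In all 12 the WT proB library was above WT pre-proB and the Rescue proB library below Rescue pre-proB, and in 0 was it the other way round. The difference was not tested, since each group has 1 library. By comparison, 2838 regions were higher in proB in both genotypes and 3276 lower in both. An example lay in an intron of Bcar3 (chr3:122375103-122377150), with folds of 7.75 in WT, 10.3 in Erg KO and 10.7 in Rescue pre-proB cells, 42.6 and 4.01 in WT and Rescue proB cells, and 12.1 and 3.51 in WT and Rescue preB cells. The step was 2.55 in WT and -1.24 in Rescue on the centred log2 scale. These steps follow the titles of the Rescue libraries.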

How the results depend on the processing

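No paired analysis was possible because each group has 1 library and no test was run. The number of regions kept stayed within 1.5 times of 31226 under every alternative, between 21270 with a −log10 q of 10 or more in each library and 33996 with a library left out. Leaving out each library in turn gave 31641 to 33996 regions, CTCF in 9.38 to 9.78%, ETS in 10.7 to 11.03%, PU.1 in 10.6 to 10.9% and RUNX in 13.8 to 14.4%, 10483 to 10813 genes with a region, a median width of 771 to 799 bp and a median TSS distance of 11951 to 12123.5 bp. With the −log10 q limit, CTCF was in 9.37%, ETS in 11.6%, PU.1 in 11.5% and RUNX in 14.6%. With each list cut to the length of the shortest, PU.1 was in 11.4% and RUNX in 14.6%. With a 200-bp window CTCF was in 9.10%, ETS in 8.72%, PU.1 in 9.38% and RUNX in 11.1%, and with 500 bp ETS was in 14.3%, PU.1 in 12.3% and RUNX in 18.4%. Centred on the common bases, PU.1 was in 10.4% and RUNX in 13.4%.

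Counts of graded regions moved more. Leaving out each library gave 1987 to 2331 higher in proB and preB, 2395 to 2857 higher in pre-proB, 110 to 271 higher in WT pre-proB (204 without Rescue pre-proB and 271 without Erg KO pre-proB), 8 to 30 higher in Erg-deficient pre-proB, 0 to 45 higher in all WT and 1 to 125 higher in all Erg-deficient libraries, the last 2 at 45 and 125 without WT pre-proB. Without that library the pre-proB comparison of genotypes gave no value. In that order of comparisons, a 1.5-fold threshold gave 3326, 4157, 561, 183, 12 and 8, and a 3-fold threshold gave 797, 798, 13 and 1, with 0 higher in all Erg-deficient libraries. Ranks gave 1163 and 505 for stage, 137 higher in Erg-deficient pre-proB and 3 higher in all Erg-deficient libraries. Promoter centring gave 11 higher in Erg-deficient pre-proB and 2 higher in all Erg-deficient libraries, and the peak nearest the median summit gave 29 and 2. By source name, 0 regions were higher in either stage group, 19 in WT and 11 in Erg-deficient pre-proB. The lowest called summit held 10 to 12 fragments, which limits what a missing peak can show.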
